A study of Mus musculus with 96 samples.

Results

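The genes described here are 10 genes of the Yap/Taz and Tead pathway, chosen by their symbols in the table: the cofactors Yap1 and Wwtr1 (the gene of Taz), the DNA-binding factor Tead1, the target genes Ctgf, Cyr61 and Ankrd1, and the regulators Amotl1, Amotl2, Lats1 and Lats2. All 10 were found among 15895 rows, under these names. Primary embryonic fibroblasts of CF-1 mice (MEFs) were starved for 36 h at 0.5% fetal calf serum, stimulated with 20% serum at 0 h, and sampled for sequencing of polyadenylated RNA in 2 time courses. Cycle 1 covers -1 to 38 h with 63 libraries used, and Cycle 2 covers -1 to 27 h with 32 libraries. Every library comes from unmodified cells of the same strain, and the starved group is the 4 libraries taken at -1 h and 0 h, 2 from each Cycle. Each hour after serum was sampled once in a Cycle, so the replicates of an hour are the 2 Cycles, at the 29 hours after serum that they share. Windows below hold these shared hours, and every window is set against the same starved libraries. The labels do not say whether libraries came from separate dishes, so p-values measure the spread between these samples, which may be technical.

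Yap1 and Taz are transcriptional cofactors that cannot bind DNA themselves and act through Tead factors. In the Hippo pathway the kinases Lats1 and Lats2 phosphorylate them, which keeps them out of the nucleus, and angiomotin family proteins such as Amotl1 and Amotl2 bind them. Serum components that act through G protein-coupled receptors, and tension of the actin cytoskeleton, are known to relieve this inhibition in fibroblasts. Ctgf and Cyr61 encode secreted matricellular proteins of the CCN family, Ankrd1 encodes an ankyrin repeat protein, and Lats2 and Amotl2 are themselves known Yap/Taz targets that feed back on the pathway. The data are RNA levels, so neither the phosphorylation nor the location of the proteins was measured.

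The sequences upstream of the targets Cyr61 and Ankrd1, of Amotl2 and of both cofactors are shown because Tead factors bind the core GGAATG. The RNA of these genes moved after serum, as did that of Lats2 and Amotl1, which are not printed. Lats2 held the core only after its start, and Amotl1 did not hold it. Printed are the 250 bases before the RefSeq start on GRCm38.p6, with GGAATG or its reverse complement CATTCC in capitals.
Cyr61, chr3:145649986-145650235, minus strand: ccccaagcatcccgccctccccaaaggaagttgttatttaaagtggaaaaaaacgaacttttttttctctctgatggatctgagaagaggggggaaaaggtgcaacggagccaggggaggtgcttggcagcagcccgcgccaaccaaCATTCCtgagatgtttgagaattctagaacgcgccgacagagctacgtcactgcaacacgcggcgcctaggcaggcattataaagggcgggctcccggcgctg
Ankrd1, chr19:36119845-36120094, minus strand: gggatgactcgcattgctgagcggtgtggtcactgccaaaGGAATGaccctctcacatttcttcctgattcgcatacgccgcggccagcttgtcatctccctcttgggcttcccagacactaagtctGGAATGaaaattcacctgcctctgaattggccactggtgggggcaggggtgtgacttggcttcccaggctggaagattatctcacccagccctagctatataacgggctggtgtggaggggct
Amotl2, chr9:102717554-102717803, plus strand: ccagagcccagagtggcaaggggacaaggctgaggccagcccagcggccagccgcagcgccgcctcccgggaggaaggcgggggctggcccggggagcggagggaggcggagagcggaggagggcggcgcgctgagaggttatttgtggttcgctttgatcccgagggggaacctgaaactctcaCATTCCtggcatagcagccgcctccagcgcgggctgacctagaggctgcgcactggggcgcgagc
Yap1, chr9:8004597-8004846, minus strand: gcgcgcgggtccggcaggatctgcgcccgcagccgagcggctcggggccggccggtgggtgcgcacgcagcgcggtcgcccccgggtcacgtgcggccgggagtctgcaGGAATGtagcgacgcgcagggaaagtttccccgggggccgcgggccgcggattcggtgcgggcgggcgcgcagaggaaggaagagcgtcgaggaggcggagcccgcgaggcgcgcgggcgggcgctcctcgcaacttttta
Wwtr1, chr3:57575911-57576160, minus strand: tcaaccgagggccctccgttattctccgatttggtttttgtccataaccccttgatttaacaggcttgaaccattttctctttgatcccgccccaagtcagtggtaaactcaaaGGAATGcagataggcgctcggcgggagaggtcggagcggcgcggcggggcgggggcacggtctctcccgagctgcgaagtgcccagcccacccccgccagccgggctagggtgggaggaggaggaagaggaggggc
Cyr61 held the core once, from base 103 before its start, and Ankrd1 held it at 2 places, from bases 210 and 123. Amotl2 held it from base 65, Yap1 from base 141 and Wwtr1 from base 136. The table of promoters had an entry for 8 of the 10 genes (Ctgf and Tead1 were not matched), and 6 of these 8 held the core on either strand within 300 bases, from 250 before to 50 after a start. The sixth was Lats2, while the windows of Amotl1 and Lats1 did not hold these letters. Counted by gene, 16.6% of 27025 symbols held the core in any promoter, and counted by promoter, 14.7% of 32851 did, against 7 of the members' 10. Of these 7, 2 are overlapping windows of 2 starts of Wwtr1 that hold the same site, which is thus counted more than once. None of the members' 10 windows held a CArG box (the serum response factor motif, in 1.63% of all promoters) or TGACTCA on either strand (in 5.2%), and no place overlapped another of these motifs. A match is a run of letters and was not tested for binding.

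On NCBIM37, the genome used for the files, the targets lie at chr10:24315248-24318489 (Ctgf), chr3:145309935-145312949 (Cyr61) and chr19:36186455-36194334 (Ankrd1). The cofactors lie at chr9:7931999-8004596 (Yap1) and chr3:57259571-57379832 (Wwtr1), and Tead1 at chr7:119822832-120050319. The regulators lie at chr9:14346410-14447973 (Amotl1), chr9:102619002-102635748 (Amotl2), chr10:7401007-7436256 (Lats1) and chr14:58260914-58377225 (Lats2). Reads were counted on exons without regard to strand, and annotated exons of Ctgf overlap Gm15270, those of Yap1 an opposite transcript, those of Lats2 Xpo4 and those of Tead1 a second transcript of that name, so such reads cannot be told apart. Values are normalized reads per gene, averaged over transcripts for Lats2, Yap1, Wwtr1 and Tead1. They are scaled to 10000000 reads per library and not divided by length. The depth recovered from the smallest step was 5067431 to 14500276 reads per library.

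Divided by annotated exon length, Cyr61 had the highest starved level, with a median of 6354 per kb over 4 libraries (2121 to 10966). Ctgf followed at 2164 per kb (689 to 3657), and the ranges of these 2 overlapped. Amotl2 (531 per kb, 324 to 669) and Wwtr1 (463 per kb, 394 to 469) overlapped each other and lay below Ctgf in every library. Tead1 (253 per kb) and Yap1 (231 per kb) overlapped, as did Lats1 (141 per kb) and Amotl1 (125 per kb). Lats2 had the lowest median, at 82.7 per kb. The values of Lats2, Yap1, Wwtr1 and Tead1 are averages over transcripts. Division by the length of all annotated exons may therefore place these genes too low among the members. The place of Ankrd1 depended on the Cycle, with a starved mean of 55.3 per kb in Cycle 1, below Lats2 at 71.1 per kb, and of 301 per kb in Cycle 2, above Yap1 at 250 per kb. At 24 to 26 h Ctgf led at 15869 per kb over 6 libraries (13192 to 18476), above every library of Cyr61 (7352 to 9908). Ankrd1 came next, at 1481 per kb (1201 to 1701), above every value of Amotl2 (756 to 991).

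The cultures carried the markers of fibroblasts: the 10 fibroblast genes summed to 403611 to 569390 in the starved libraries. The sums were 217 to 292 for 6 endothelial markers, 160 to 403 for 7 epithelial markers, 1104 to 3492 for 6 macrophage and blood markers and 2172 to 2663 for 11 striated muscle markers, and no marker was at 0 in both starved libraries of a Cycle. The starved Cycles differed in some of these sums. Macrophage and blood markers summed to 1104 to 1169 in Cycle 1 and 3412 to 3492 in Cycle 2. Epithelial sums were 374 to 403 and 160 to 168, and fibroblast sums 545268 to 569390 and 403611 to 425208. The endothelial and striated muscle sums of the Cycles overlapped. These levels moved with time: at 15 to 23 h 8 of 10 fibroblast markers were called lower and 2 higher (median log2 change -1.13), 4 of 6 endothelial, 3 of 7 epithelial and 7 of 11 striated muscle markers were called lower, and 1 of 6 macrophage markers was called higher, where 34.9% of all rows were called lower and 24.8% higher. Their part in the results was not tested. In bulk RNA, fewer cells of a type and less RNA per cell cannot be told apart. The 24.5 h library of Cycle 1 stands apart for several members, with Lats1 at 396 against 997 at 24 h and 642 at 25 h. It belongs to no shared hour and entered no test.

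The starved cells of the Cycles differed most for 2 targets. Ctgf was at 1715 and 2530 (-1 h and 0 h) in Cycle 1 and at 8247 and 9105 in Cycle 2, a ratio of means of 4.09. Ankrd1 was at 102 and 93.0 in Cycle 1 and at 507 and 555 in Cycle 2, a ratio of 5.44. The other 8 members had ratios between 0.855 (Amotl1) and 1.53 (Tead1). Both starved libraries of Cycle 2 lay above both of Cycle 1 not only for Ctgf and Ankrd1 but also for Lats2, Yap1, Wwtr1 and Tead1, and below both for Amotl1, while Cyr61, Amotl2 and Lats1 overlapped.

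Cyr61 moved before serum was added. It was at 4302 at -1 h and 22239 at 0 h in Cycle 1, and at 8034 and 17738 in Cycle 2. The level at 0 h was thus the higher in both Cycles, by a log2 change of 1.76 ± 0.33 (SE, limma, adjusted p = 0.00323, n = 2 against 2). Amotl2 also was higher at 0 h, at 3788 against 2038 in Cycle 1 and 4206 against 2889 in Cycle 2, a log2 difference of 0.72 ± 0.17 that missed the threshold (limma, adjusted p = 0.0528) but passed it with a pseudocount of 5 (0.72, limma, adjusted p = 0.0484). No other member was called, so 1 of 10 was higher and 0 lower between these libraries, against 0.346% of all rows higher and 0.0566% lower; this comparison was chosen after the values were seen. Any change of Cyr61 from the starved group therefore depends on which starved hour is the base, and each base is given below.

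Ctgf was called higher from 2 to 3 h after serum on and from unlike starved levels reached overlapping values in the Cycles up to 20 h. In Cycle 1 it went from 2530 at 0 h through 4946 at 1 h, 8345 at 2 h and 18904 at 3 h to 59259 at 7.5 h, its highest value and 27.9 times the starved mean. In Cycle 2 it passed from 9105 at 0 h to 6462 at 1.5 h, then 12537 at 2 h and 25386 at 3 h, and was highest at 60209 at 18 h, 6.94 times its starved mean. It crossed the midpoint between the starved mean and its highest value after 3.84 h in Cycle 1 and 3.64 h in Cycle 2. Over the whole hours from 7 to 20 h it lay between 46251 and 57251 in Cycle 1 (median 49563, n = 14) and between 45380 and 60209 in Cycle 2 (median 53915, n = 14). These ranges overlapped, while those of the starved libraries did not. Later the Cycles parted again, with 32849 to 33799 in Cycle 1 and 45230 to 46006 in Cycle 2 at 24 to 26 h (n = 3 each). On the log2 scale the change from starved was 0.52 ± 0.32 at 1 to 1.5 h (adjusted p = 0.294), 1.79 ± 0.29 at 2 to 3 h (adjusted p = 3.01e-06), 3.54 ± 0.25 at 4 to 10 h (adjusted p = 1.48e-13) and 2.93 ± 0.27 at 24 to 27 h (limma, adjusted p = 1.04e-10).

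**Figure D1:**
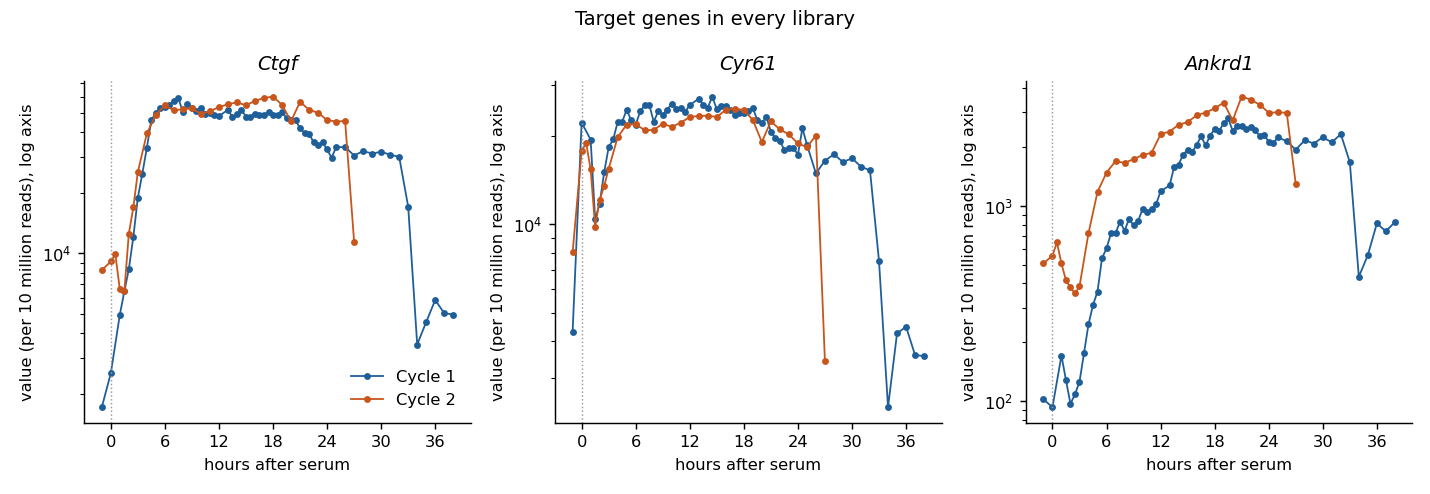
Values of the 3 targets (normalized reads, log axis) against hours after serum, with a point for each library of Cycle 1 (blue) and Cycle 2 (orange) and a dotted line at 0 h. Ctgf starts lower in Cycle 1 and the Cycles then meet, Cyr61 is high at 0 h and dips at 1.5 h, Ankrd1 climbs for about 20 h, and all 3 drop after 32 h in Cycle 1 and after 26 h in Cycle 2.

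Cyr61 passed through a low at 1.5 h in both Cycles before its later, called increase. From 22239 at 0 h it was at 19462 at 1 h and 10394 at 1.5 h in Cycle 1, and from 17738 it was at 18966 at 0.5 h, 15393 at 1 h and 9820 at 1.5 h in Cycle 2. Each later library up to 4 h was above the one before, with 22331 (Cycle 1) and 19824 (Cycle 2) at 4 h. From 4 to 10 h it held between 21860 and 25829 in Cycle 1 and between 19824 and 22062 in Cycle 2. The peaks were 27294 at 14.5 h and 24804 at 17 h, or 2.06 and 1.92 times the starved mean of the Cycle. Against all 4 starved libraries the log2 change was 1.06 ± 0.25 at 4 to 10 h (adjusted p = 0.000569), 1.17 ± 0.27 at 11 to 14 h (adjusted p = 0.000521) and 1.05 ± 0.25 at 15 to 23 h (limma, adjusted p = 0.000429). With the 0 h libraries alone as the base these changes were 0.18 (adjusted p = 0.57), 0.29 (adjusted p = 0.367) and 0.18 (limma, adjusted p = 0.56), so the call was lost in all 3 windows. With the -1 h libraries alone they were 1.93 (adjusted p = 2.49e-07), 2.05 (adjusted p = 3.19e-07) and 1.93 (limma, adjusted p = 2.22e-07). At 1 to 1.5 h the change was 0.29 ± 0.31 against the 4 libraries, -0.59 against 0 h (adjusted p = 0.195) and 1.17 against -1 h (limma, adjusted p = 0.0035). At 2 to 3 h it was 0.39 ± 0.29 against the 4 libraries (adjusted p = 0.255), -0.48 against 0 h (adjusted p = 0.137) and 1.27 against -1 h (limma, adjusted p = 0.000277). At 24 to 27 h it was 0.42 ± 0.27 (adjusted p = 0.189), -0.46 against 0 h (adjusted p = 0.133) and 1.30 against -1 h (limma, adjusted p = 0.000197).

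Ankrd1 rose later and more slowly. Up to 3 h it stayed between 96.8 and 171 in Cycle 1 and between 356 and 648 in Cycle 2. It was at 247 and 723 at 4 h and at 960 and 1817 at 10 h in Cycles 1 and 2. The highest values were 2795 at 19.5 h in Cycle 1, 28.6 times the starved mean, and 3617 at 21 h in Cycle 2, 6.81 times. The midpoint of the rise came after 13.3 h in Cycle 1 and 11.5 h in Cycle 2, against under 4 h for Ctgf. The log2 change from starved was not called at 1 to 1.5 h or 2 to 3 h. It then was 1.99 ± 0.46 at 4 to 10 h (adjusted p = 0.000405), 2.88 ± 0.50 at 11 to 14 h (adjusted p = 1.12e-05) and 3.55 ± 0.45 at 15 to 23 h (limma, adjusted p = 3.95e-08).

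Later windows held more calls than 1 to 1.5 h, among the members and among all rows. The windows hold unlike numbers of hours, which also affects how small a change can be called. An F test over the 29 shared hours called a gene when its adjusted p was under 0.05 and at least 1 hour lay more than 1 log2 unit from starved. This called 4 of 10 members, namely Ctgf, Cyr61, Ankrd1 and Amotl2, against 46.3% of all rows. At 1 to 1.5 h 1 member was higher and 0 lower, against 5.62% and 15.3% of rows. At 2 to 3 h 2 were higher and 2 lower, against 14% and 38.7%. At 4 to 10 h 5 were higher and 0 lower, against 20.7% and 37.2%, and the 5 were Ctgf, Cyr61, Ankrd1, Amotl2 and Lats2. At 11 to 14 h 6 were higher and 2 lower (background 22.2% and 31.1%), at 15 to 23 h 7 and 2 (background 24.8% and 34.9%), and at 24 to 27 h 6 and 1 (background 22% and 34.9%). From 1 to 1.5 h to 4 to 10 h 5 rose and 1 fell, against 26.6% and 27.2%. In the windows a call needed only the adjusted p. The members' median log2 change from starved went from 0.13 at 1 to 1.5 h to 0.64 at 15 to 23 h, while that of all rows was -0.15 and -0.13. The deposited scaling sets the median row at -0.32 at 2 to 3 h, and TMM rescaling moves it to -0.07. With TMM 3 members were higher and 0 lower in that window. Over all rows TMM moved the higher and lower calls from 893 and 2434 to 1258 and 1459 at 1 to 1.5 h, from 2226 and 6156 to 3579 and 4210 at 2 to 3 h, and from 3294 and 5916 to 4246 and 4758 at 4 to 10 h.

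**Figure D2:**
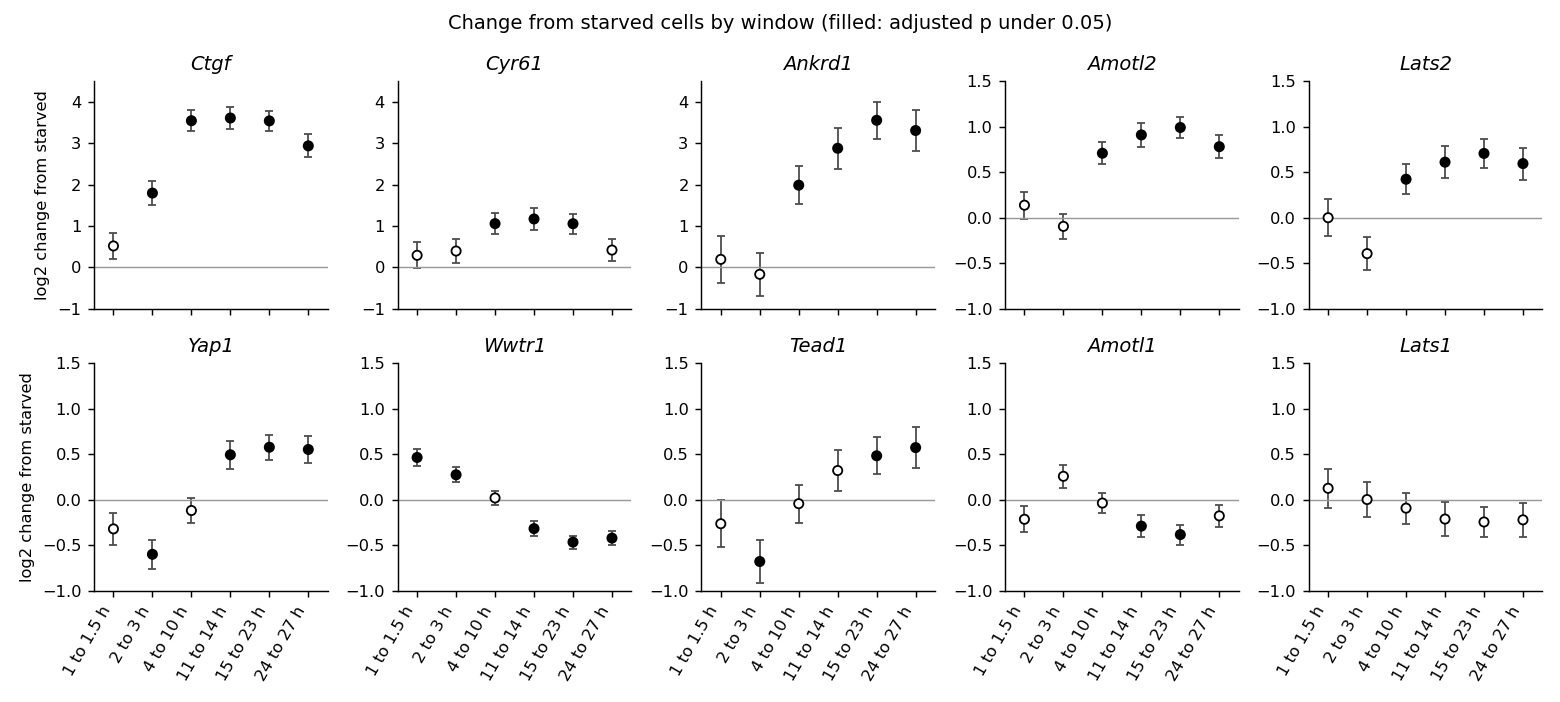
Log2 change from starved cells for each member in 6 windows of hours (points) with its standard error (bars, limma), filled where the adjusted p was under 0.05; the scale differs between the 3 targets in the first panels and the other 7 genes. Wwtr1 starts above 0 and ends below it while Yap1 and Tead1 go the other way, and the open points of Lats1 lie near 0 throughout.

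The cofactors moved in opposite directions. Wwtr1 was at 1881 and 2207 (starved, Cycle 1) and 2242 and 2215 (Cycle 2), and peaked at 1.5 h, at 3202 and 2905. By 15 to 23 h it lay between 1340 and 1655 in Cycle 1 and between 1446 and 1701 in Cycle 2, below every starved library. Its log2 change was 0.46 ± 0.09 at 1 to 1.5 h (adjusted p = 0.000181), -0.32 ± 0.08 at 11 to 14 h (adjusted p = 0.00101) and -0.46 ± 0.07 at 15 to 23 h (limma, adjusted p = 1.17e-06). Yap1 was at 1979 and 1923 (starved, Cycle 1) and 2343 and 2290 (Cycle 2), fell to 1276 at 3 h and 1429 at 2.5 h, and lay between 2479 and 3035 (Cycle 1) and between 3553 and 3774 (Cycle 2) at 15 to 23 h. Every library of that window was above every starved library. The log2 change of Yap1 was -0.60 ± 0.16 at 2 to 3 h (adjusted p = 0.00184), 0.49 ± 0.15 at 11 to 14 h (adjusted p = 0.00627) and 0.58 ± 0.14 at 15 to 23 h (limma, adjusted p = 0.000493). With TMM rescaling the early fall of Yap1 was -0.33 and was no longer called (limma, adjusted p = 0.0909), while its libraries at 2 to 3 h lay below all 4 starved ones as deposited.

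Tead1, one of the Tead factors that bring both cofactors to DNA, followed the course of Yap1. It was at 2094 and 2365 (starved, Cycle 1) and 3489 and 3322 (Cycle 2), fell to 1263 at 3 h in Cycle 1 and 1956 at 5 h in Cycle 2, and was highest at 5072 at 33 h and 5203 at 26 h. At 2 to 3 h the log2 change was -0.68 ± 0.24 (adjusted p = 0.0163), at 15 to 23 h 0.48 ± 0.20 (adjusted p = 0.0404) and at 24 to 27 h 0.57 ± 0.23 (limma, adjusted p = 0.03). These calls are near the threshold. With TMM the early change was -0.41 (limma, adjusted p = 0.149), and it was -0.56 and -0.59 without the -1 h or the 0 h library of Cycle 2 (limma, adjusted p = 0.07 and 0.0598). Without the -1 h library of Cycle 1 the changes at 15 to 23 h and 24 to 27 h were 0.35 (adjusted p = 0.198) and 0.44 (limma, adjusted p = 0.138), and without its 0 h library they were 0.41 (adjusted p = 0.14) and 0.50 (limma, adjusted p = 0.0993).

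Among the regulators, Amotl2 and Lats2 rose, and Amotl1 was called lower at 11 to 14 h and 15 to 23 h, by more in Cycle 1. Amotl2, which retains Yap in the cytoplasm, dipped to 2904 and 2420 at 2 h and then climbed to 6770 at 17 h (Cycle 1) and 6614 at 19 h (Cycle 2). At 15 to 23 h it lay between 5524 and 6770 over both Cycles, above its highest starved value of 4206, and the log2 change was 0.99 ± 0.12 (limma, adjusted p = 9.92e-09). Lats2 was at 464 to 684 in the starved libraries, at 393 to 509 at 2 to 3 h and at 688 to 1161 at 15 to 23 h, again above every starved library in the last window. Its log2 change was 0.71 ± 0.16 at 15 to 23 h (limma, adjusted p = 0.000286). At 4 to 10 h it was 0.42 ± 0.16 (limma, adjusted p = 0.0261), and 0.31 or 0.41 without the -1 h or the 0 h library of Cycle 1 (limma, adjusted p = 0.147 and 0.0604). Amotl1 was highest early, at 2212 at 3.5 h in Cycle 1 and 1641 at 3 h in Cycle 2, and at 15 to 23 h lay between 786 and 1182, overlapping the starved range of 1172 to 1462 by 1 library. Its log2 change there was -0.38 ± 0.11 (limma, adjusted p = 0.00332), at -0.57 in Cycle 1 and -0.20 in Cycle 2. With the -1 h libraries alone as the base it was -0.35 and no longer called (limma, adjusted p = 0.0577). At 24 to 27 h the change of Amotl1 was -0.18 and was not called (limma, adjusted p = 0.215). Its call at 11 to 14 h, -0.29 ± 0.12 (limma, adjusted p = 0.0445), was lost with TMM (-0.21, adjusted p = 0.173) and without either starved library of Cycle 1 (-0.28 and -0.22, limma, adjusted p = 0.0913 and 0.176). Lats1 was at 890 to 1037 in starved cells and at 603 to 1057 at 15 to 23 h, a log2 change of -0.24 ± 0.17 that was not called (limma, adjusted p = 0.205), nor was Lats1 called in any other window.

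**Figure D3:**
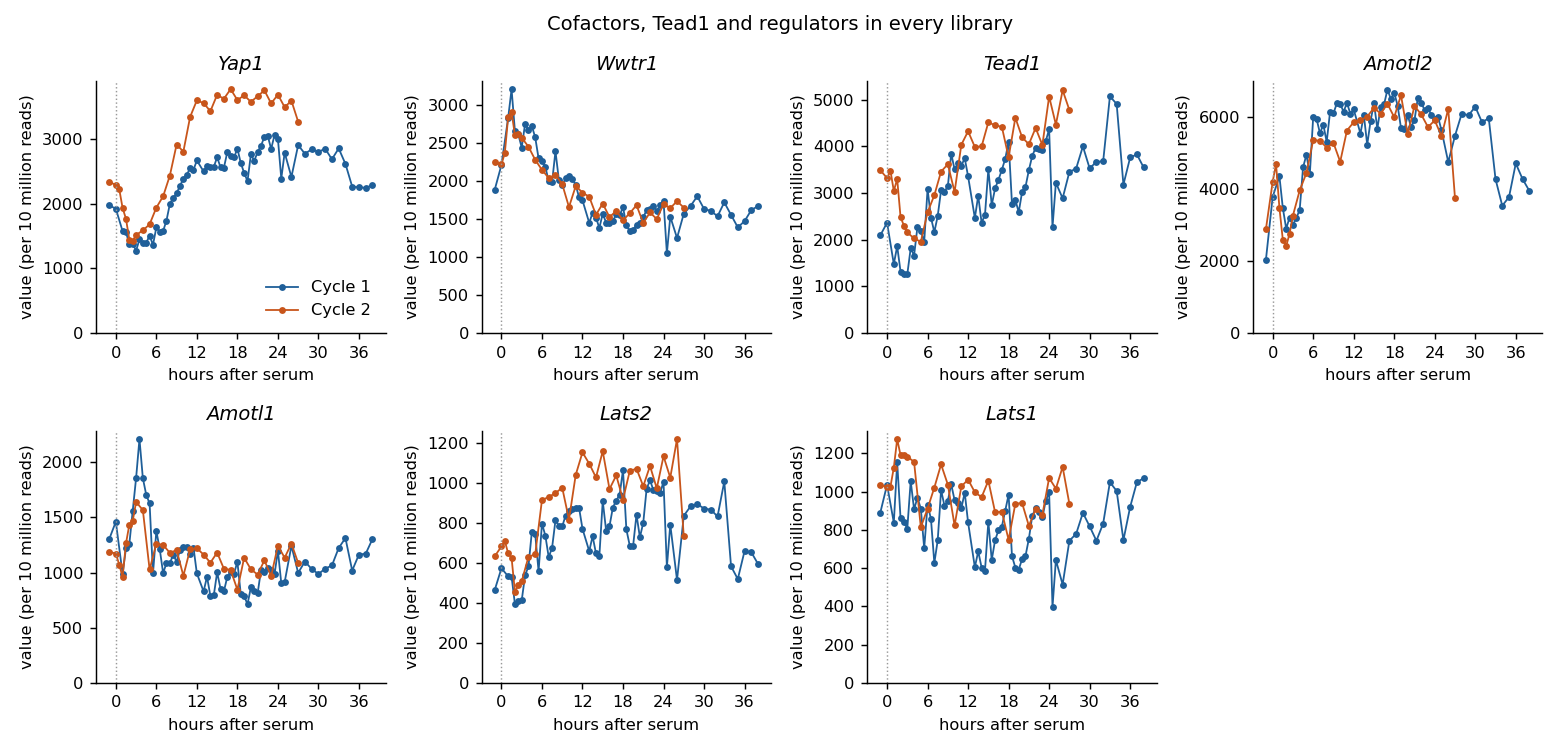
Values (normalized reads, linear axes from 0) of the 2 cofactors, Tead1 and the 4 regulators against hours after serum, with a point for each library of Cycle 1 (blue) and Cycle 2 (orange). Wwtr1 peaks at 1.5 h in both Cycles and Yap1 has its lowest values at 2.5 to 3 h; the single low points of Wwtr1, Tead1, Lats1 and Lats2 at 24.5 h are 1 library of Cycle 1.

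Ratios of 2 members within a library do not depend on the scaling. Wwtr1 over Yap1 had a mean log2 ratio of 0.0034 ± 0.13 (SD, n = 4) in starved cells. It was 0.79 ± 0.21 (SD, n = 4) at 1 to 1.5 h, higher in 4 of 4 libraries than in any starved one (exact permutation test, two-sided, p = 0.029, adjusted p = 0.046, where 0.029 is the smallest p of the design). With libraries regrouped only within their Cycle, in 36 ways, p was 0.056 (exact permutation, adjusted p = 0.089), the smallest that this design allows, so the call at 1 to 1.5 h cannot be made within Cycles. At 25 to 27 h it was -0.97 ± 0.09 (SD, n = 6), lower in 6 of 6 libraries (exact permutation, p = 0.0048, adjusted p = 0.013), so the ratio went from 1.72 times the starved ratio to 0.508 times. Lats2 over Lats1 went from -0.77 ± 0.16 (SD, n = 4) in starved cells to 0.04 ± 0.22 (SD, n = 6) at 25 to 27 h, higher in 6 of 6 libraries (exact permutation, p = 0.0048, adjusted p = 0.013). Amotl2 over Amotl1 went from 1.29 ± 0.49 (SD, n = 4) to 2.23 ± 0.32 (SD, n = 6), higher in 5 of 6 libraries than in any starved one (exact permutation, p = 0.0095, adjusted p = 0.019). Ctgf over Cyr61 went from -1.35 ± 1.32 (SD, n = 4) to 1.19 ± 0.32 (SD, n = 6), higher in 6 of 6 (exact permutation, p = 0.0048, adjusted p = 0.013). At 1 to 1.5 h the last 3 ratios overlapped their starved values (exact permutation, adjusted p = 0.42 for Lats2 over Lats1, 0.42 for Amotl2 over Amotl1 and 0.8 for Ctgf over Cyr61). The p-values were adjusted over 8 tests. In these tests n counts libraries, and neighbouring hours of a Cycle stood as separate units. They are not replicates, and each Cycle is 1 time course, so the p-values do not measure a replicated difference. Regrouped within Cycles, in 100 ways, the 4 ratios at 25 to 27 h had p = 0.01, or 0.02 for Amotl2 over Amotl1 (exact permutation, adjusted p = 0.027 and 0.04).

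**Figure D4:**
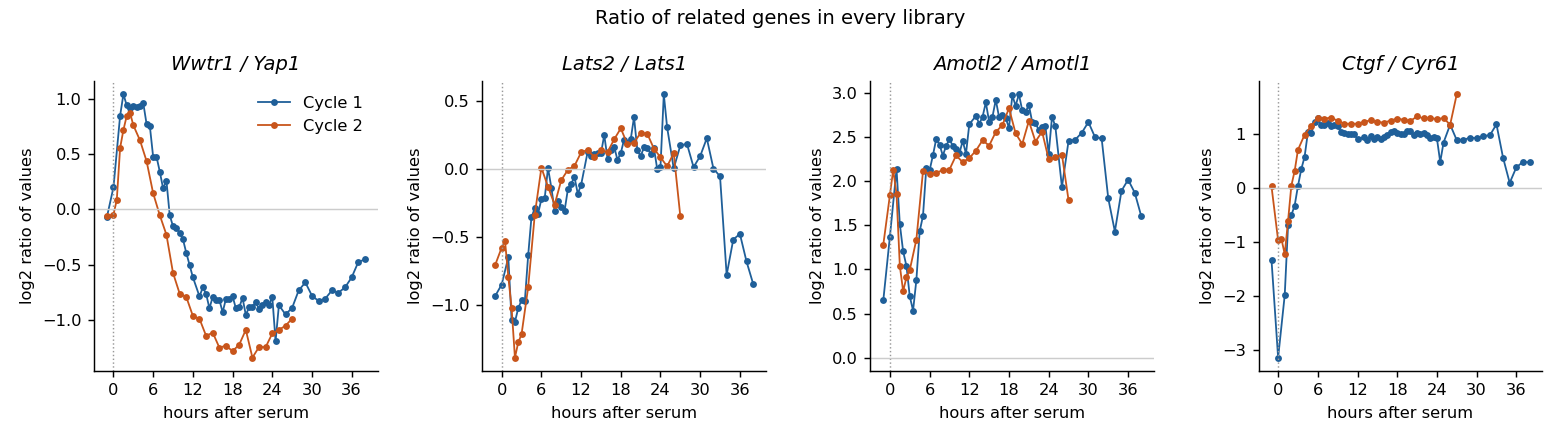
Log2 ratio of the values of 4 pairs of related members against hours after serum, with a point for each library of Cycle 1 (blue) and Cycle 2 (orange). Wwtr1 over Yap1 rises above 0 within 3 h and falls to about -1, and Lats2 over Lats1 rises from about -0.8 to near 0.

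The rise from starved differed between the Cycles for Ctgf and Ankrd1. The log2 change of Ctgf at 4 to 10 h was 4.57 in Cycle 1 and 2.51 in Cycle 2, a difference of -2.05 ± 0.38 (limma interaction, adjusted p = 7.52e-05), and all 6 windows were called for it. Ankrd1 changed by 4.55 in Cycle 1 and 2.55 in Cycle 2 at 15 to 23 h, a difference of -2.0 ± 0.40 (limma interaction, adjusted p = 0.000141), with the 4 windows from 4 h on called. The interaction test took the hours of a window as repeats within a Cycle. They are not replicates, and each Cycle is 1 time course, so the p-values do not measure a replicated difference. The Cycles differed in starved level for these 2 genes by 4.09 and 5.44 times, as given above. No other member was called in any window, while 108 (1 to 1.5 h) to 3548 (15 to 23 h) of 15895 rows were.

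All 3 targets fell abruptly near the end of each time course, at unlike hours. In Cycle 1 Ctgf was at 30200 at 32 h, 17071 at 33 h and 3518 at 34 h, Cyr61 at 15273, 7498 and 2375, and Ankrd1 at 2324, 1670 and 433. At 34 to 38 h they stayed low: Ctgf lay between 3518 and 5860 (n = 5) against 30200 to 32263 at 28 to 32 h (n = 5), Cyr61 between 2375 and 4472 against 15273 to 17329, and Ankrd1 between 433 and 823 against 2079 to 2324. The ratios of means were 0.153, 0.224 and 0.309. In Cycle 2 the fall came in the last library: from 26 h to 27 h Ctgf went from 45540 to 11417, Cyr61 from 20094 to 3405 and Ankrd1 from 2990 to 1291. The ratios were 0.251 for Ctgf (95% exact binomial interval 0.246 to 0.256), 0.169 for Cyr61 (0.164 to 0.176) and 0.432 for Ankrd1 (0.405 to 0.460), where the intervals cover counting error only. Amotl2 (0.670 in Cycle 1, 0.601 in Cycle 2) and Lats2 (0.692 and 0.601) were lower by less. Wwtr1 (0.934 and 0.951) and, by these ratios, Tead1 (1.04 and 0.919) stayed near their earlier values. Within Cycle 1, however, Tead1 went from 3679 at 32 h to 5072 at 33 h and 4909 at 34 h. It lay between 3181 and 4909 at 34 to 38 h, against 3526 to 4001 at 28 to 32 h.

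With 1 Cycle at each step there is no replicate and no test. The hours of the steps differ between the Cycles and lie where the 3 targets fell, with 33 h left out in Cycle 1. The shares and ranks below thus describe that fall and lend it no support. Of all rows, 1.82% were below 0.5 and 5.74% above 2 at the step of Cycle 1, and 3.52% were below 0.5 and 3.4% above 2 at that of Cycle 2, against 3 of 10 members below 0.5 in each. Counted from the lowest ratio of 15895 rows, Ctgf ranked 9, Cyr61 25 and Ankrd1 58 in Cycle 1, and 84, 22 and 417 in Cycle 2. Of the 10 fibroblast markers 0 were below 0.5 at either step and Pdgfra was above 2 in Cycle 1 (2.01). In Cycle 1 the epithelial marker Cldn4 (0.408) and the endothelial marker Emcn (0.469) were below 0.5 and the endothelial Tek (2.41) above 2, from means of 22.1, 14.6 and 6.59 before the step. In Cycle 2 the striated muscle gene Myh7 (0.246) was below 0.5, and Myod1 (2.96) and the endothelial Tie1 (2.23) were above 2. These 3 were near the floor, going from 3.06 to 0 (Myh7), 0 to 1.96 (Myod1) and 0.765 to 2.94 (Tie1). The marker ratios are of value + 1. The median log2 change of the marker lists at the step of Cycle 1 was 0.24 (fibroblast), -0.68 (epithelial), -0.45 (striated muscle), -0.18 (endothelial) and -0.06 (macrophage). At the step of Cycle 2 it was 0.07, 0, 0.22, 0.43 and -0.08 in the same order. The part of the markers in the fall of the targets was not tested. The depths of the libraries at 33 to 38 h and at 27 h, 5105641 to 12039909 reads, lie within the range of the series. The 27 h library of Cycle 2 is in the window of 24 to 27 h: without it Cyr61 was higher by 0.70 there (limma, adjusted p = 0.00867), against 0.42 ± 0.27 with it (limma, adjusted p = 0.189), and the change of Tead1 was 0.51 (limma, adjusted p = 0.0621).

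**Figure D5:**
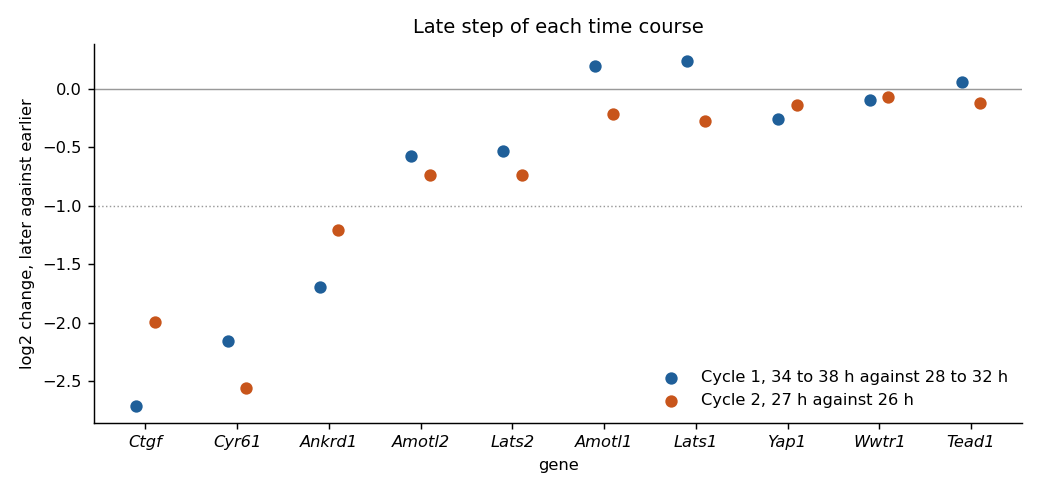
Log2 change at the late step of each time course for the 10 members: mean of 34 to 38 h against mean of 28 to 32 h in Cycle 1 (blue, 5 libraries each) and 27 h against 26 h in Cycle 2 (orange, 1 library each). Ctgf, Cyr61 and Ankrd1 lie below the dotted line at -1 (a ratio of 0.5) in both Cycles, and the other 7 lie above it.

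Other genes of the pathway were followed by lists, to be read against 24.8% of all rows called higher and 34.9% called lower at 15 to 23 h. The log2 changes from starved given for single genes of these lists passed limma's test with an adjusted p of at most 0.00513. Of 17 other widely used Yap/Taz targets, 8 were called higher and 5 lower at 15 to 23 h (median log2 change 0.38), the lower share being near that of all rows. Crim1, a transmembrane protein with cysteine-rich repeats, was higher by 2.07 at 24 to 27 h and Fjx1 by 2.27 at 2 to 3 h, whereas Igfbp3, a binding protein of insulin-like growth factors, fell by 4.43 and Gadd45a, a stress-response gene, fell by 2.50 on the log2 scale at 24 to 27 h. Of the 4 other CCN genes, 0 were called higher and 2 lower at 15 to 23 h, with Nov lower by -2.89 at 24 to 27 h and Wisp1 higher by 0.81 at 2 to 3 h. Nuak2 was the 1 gene of the target list with a ratio below 0.5 at the late step of both Cycles (0.400 and 0.419), and F3 (0.478) and Fjx1 (0.474) were below it in Cycle 1; these were named after their values were seen, and the step has no test. Srf itself was at 0.490 in Cycle 1 and 0.650 in Cycle 2.

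Of 24 Hippo kinases and upstream regulators, 9 were called higher and 6 lower at 15 to 23 h (median -0.15, against -0.13 over all rows). Frmd6, a FERM domain protein upstream of the kinases, was higher by 1.93 at 2 to 3 h and Rassf1 by 1.88 at 24 to 27 h, and the atypical cadherins Fat4 and Dchs1 were lower by -2.29 at 4 to 10 h and -2.43 at 24 to 27 h. Among 6 other Tead and Vgll genes, 3 were called higher and 2 lower at 15 to 23 h, the lower share again near that of all rows. Tead4 was higher by 2.03 at 4 to 10 h and Vgll3, a Tead cofactor, by 1.26 at 11 to 14 h, while Tead3 was lower by -1.36 at 2 to 3 h. Of 15 genes of Srf, its Mrtf cofactors and their cytoskeletal targets, 14 were called higher and 0 lower at 15 to 23 h (median 1.29), and 1 higher and 1 lower at 1 to 1.5 h, where 5.62% and 15.3% of all rows were called. Cnn1, encoding calponin, was higher by 2.68, Tagln by 1.98, Tpm2 by 1.91 and Acta2 by 1.90 at 24 to 27 h.

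The rows most like a member were taken as those with the highest Pearson r of log2(value + 1) in the Cycle where r was lower, over 63 and 32 libraries and 10484 rows with a mean of at least 50. For Ctgf they were Arpc5 (0.905), 9130008F23Rik (0.900) and Pgam5 (0.900), for Cyr61 Mfsd2a (0.823), Npas4 (0.775) and Adm (0.775), and for Ankrd1 Rassf6 (0.975), Rab3ip (0.956) and Etv4 (0.955). Yap1 was most like Pawr (0.964), Msrb3 (0.953) and Camk2g (0.949), Wwtr1 like Spty2d1 (0.948), Bach1 (0.943) and Dab2 (0.938), and Tead1 like Wnk1 (0.952), Cdc42bpa (0.943) and Wwc2 (0.929). For the regulators they were Ptpn21 (0.897), Bdnf (0.893) and Irak2 (0.863) for Amotl2, Ssh1 (0.914), Spred2 (0.846) and Abhd2 (0.846) for Amotl1, Cldn12 (0.908), Senp5 (0.887) and Pdlim5 (0.865) for Lats2, and Prrc2c (0.862), Nr3c1 (0.842) and Zc3h12c (0.839) for Lats1. No member was among the 3 rows most like another member. Between members, pairs picked after the values were seen, r was 0.83 and 0.91 (Cycles 1 and 2) for Yap1 and Tead1, -0.79 and -0.91 for Yap1 and Wwtr1, 0.83 and 0.93 for Ankrd1 and Amotl2, and 0.82 and 0.72 for Ctgf and Cyr61. These are descriptions over libraries that follow each other in time and share a scaling.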

How the data were processed

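RNA of serum-stimulated mouse embryonic fibroblasts was sequenced as single-end reads of 50 bases in 2 time courses. The authors demultiplexed with CASAVA, aligned to mm9 with STAR, counted reads on exons of both strands with HOMER and scaled each library to 10000000 reads; versions are not given in the sources used here. The deposited values are this normalized signal, averaged over transcripts in 3291 of 15895 rows, those of Lats2, Yap1, Wwtr1 and Tead1 among them. Of 96 columns 95 were matched to libraries by name and 1 was not used. Between 99.8% and 100% of low values were whole multiples of a library's step (tolerance 0.1 step), which gave depths of 5067431 to 14500276 reads.

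Groups were taken from the labels. log2(value + 1) was fitted with limma 3.58.1 in R 4.3.3, with the 4 starved libraries as a group and a group for each of 29 shared hours, 62 libraries in all, and hours averaged in windows. Benjamini-Hochberg adjusted p under 0.05 over all rows counted as called. The labels do not say whether libraries came from separate cultures, so p-values measure the spread between these samples and may be too small where a Cycle shares its cells. edgeR 4.0.16 on recovered whole reads called 2032 rows higher and 5214 lower at any shared hour, against 7365 rows in all by limma. Ratios were tested by exact permutation (Python 3.11.15, scipy 1.17.1). Named beside the members were up to 4 genes per list with the largest called change, and the 3 rows most like each member. Exon lengths are from GENCODE on NCBIM37, promoters from RefSeq. Members and lists were chosen with earlier results of these data known. Alternatives covered pseudocounts, low rows, scaling, base, block, tool and left-out libraries; Vgll1, Myf5, Hba-a1 and Hbb-b1 of the lists were not found in the table.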

Additional observations from a re-analysis of the deposited data

Results flagged for a closer look

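In the 4 starved libraries, the -1 h library of Cycle 1 lay apart for 2 members. Its gap to the nearest library took 0.898 of the whole range for Lats1 (890 against 1022 to 1037) and 0.905 for Wwtr1 (1881 against 2207 to 2242), past Dixon's 95% limit for 4 samples; chance gives about 1 such group in 20.

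The change from starved differed between the Cycles, by limma's interaction test, for Ctgf and Ankrd1. For Ctgf the log2 change of Cycle 2 minus that of Cycle 1 was -1.85 at 1 to 1.5 h (adjusted p = 0.0449), -1.56 at 2 to 3 h (adjusted p = 0.0175), -2.05 at 4 to 10 h (adjusted p = 7.52e-05), -1.94 at 11 to 14 h (adjusted p = 0.000435), -1.78 at 15 to 23 h (adjusted p = 0.000212) and -2.08 at 24 to 27 h (limma, adjusted p = 0.000158). For Ankrd1 it was -1.15 at 4 to 10 h (adjusted p = 0.0453), -1.55 at 11 to 14 h (adjusted p = 0.00958), -2.0 at 15 to 23 h (adjusted p = 0.000141) and -2.23 at 24 to 27 h (limma, adjusted p = 0.000193). Every window shares the same 4 starved libraries, in which both genes were higher in Cycle 2. Hours of a window stood as repeats within a Cycle and are not replicates, so these p-values do not measure a replicated difference.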

How the results depend on the processing

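Pseudocounts of 0.5 and 5, leaving out rows with a mean under 10, limma's trend and robust setting and edgeR on recovered reads kept the counts of called members at any hour and in each window within 1.5 times, with 3 members at any hour by edgeR against 4; a pseudocount of 5 raised the members higher at 0 h than at -1 h by Amotl2. TMM gave 0 members lower at 2 to 3 h and 1 at 11 to 14 h; median ratio scaling gave 4 higher and 0 lower at 2 to 3 h and 1 lower at 11 to 14 h. With 0 h as the only base, 1 member was higher at 2 to 3 h, 3 at 4 to 10 h, and 1 lower at 11 to 14 h. Cyr61 then was at -0.59 at 1 to 1.5 h, -0.48 at 2 to 3 h and -0.46 at 24 to 27 h, the other sign from the main values, and the Cyr61 levels at -1 h and 0 h show the source. With -1 h as the only base (chosen after seeing the data, as was leaving out the 27 h library of Cycle 2), 3 were higher at 1 to 1.5 h, and 1 was lower at 2 to 3 h, at 11 to 14 h and at 15 to 23 h. The ratios at 0 h base were 3.24 (Ctgf over Cyr61), 0.76 (Lats2 over Lats1), 0.62 (Amotl2 over Amotl1) and -1.05 (Wwtr1 over Yap1) at 25 to 27 h and 0.71 for the last at 1 to 1.5 h; at -1 h base they were 1.84, 0.87, 1.27, -0.91 and 0.86, and Ctgf over Cyr61 was -0.48 at 1 to 1.5 h. Regrouped within Cycles (also chosen after seeing the data), Wwtr1 over Yap1 at 1 to 1.5 h (0.78) was no longer called. With 2 starved libraries these permutation tests cannot pass the threshold after adjustment, so they say nothing of stability.

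Over fits that leave out 1 Cycle or 1 starved library, called members ranged from 0 to 4 at any hour, 0 to 2 higher at 1 to 1.5 h, 1 to 3 higher and 1 to 4 lower at 2 to 3 h, 2 to 5 higher at 4 to 10 h, 2 to 6 higher and 0 to 2 lower at 11 to 14 h, 4 to 7 higher and 1 to 2 lower at 15 to 23 h, 3 to 6 higher and 0 to 1 lower at 24 to 27 h, and 2 to 5 higher and 0 to 1 lower from 1 to 1.5 h to 4 to 10 h. A fit of 1 Cycle has 2 starved libraries for its spread, assumes that each hour's lone library varies like them, and called 0 rows at any hour over all 15895. The log2 ratios ranged from -0.45 to 0.90 and 1.87 to 3.21 for Ctgf over Cyr61 (1 to 1.5 h, then 25 to 27 h), -0.26 to 0.011 and 0.57 to 1.05 for Lats2 over Lats1, -0.11 to 0.82 and 0.56 to 1.33 for Amotl2 over Amotl1, and 0.69 to 0.88 and -1.00 to -0.91 for Wwtr1 over Yap1 (-0.99 without Cycle 1 and -0.97 without Cycle 2). At 1 to 1.5 h Ctgf ranged from -0.41 without Cycle 1 to 1.44 without Cycle 2, and was at 0.88 without the 0 h library of Cycle 2. Without the -1 h library of Cycle 1, 2 members were called at any hour, 4 lower at 2 to 3 h and 1 lower at 11 to 14 h, and Cyr61 was at -0.15 (1 to 1.5 h), -0.049 (2 to 3 h) and -0.025 (24 to 27 h). Without the 0 h library of Cycle 1, 1 was lower at 11 to 14 h, Cyr61 was called at 2 to 3 h (0.74) and 24 to 27 h (0.76), and Ctgf over Cyr61 was at -0.37 at 1 to 1.5 h. Without either starved library of Cycle 2, 1 was lower at 2 to 3 h.

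The Cycle number was tested as a replicate block. Deviations of libraries of 1 Cycle correlated at a median of 0.445 over 406 pairs of hours, at or under 0.1 in 11, with a lowest of -0.0317. Libraries of a Cycle thus mostly deviated together, though not in every pair by over 0.1. The fit without the block was still kept as the main one, so its standard errors and p-values leave this pairing out. With the block, 1 member was lower at 1 to 1.5 h, 3 at 2 to 3 h, and 6 were higher from 1 to 1.5 h to 4 to 10 h; the other counts of members were those of the main fit. Of 83 further changes or differences that were not called, 14 had the other sign under some alternative, 0 of them called, and 7 were called under some alternative. The cause of the other changes was not tested.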
